A study of Homo sapiens with 6 samples.

Results

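Kallikrein-related peptidases are encoded by a run of neighbouring genes on chromosome 19, and 10 of them were examined here: KLK4, KLK5, KLK6, KLK7, KLK8, KLK10, KLK11, KLK12, KLK13 and KLK14. They were chosen by name and are taken in genomic order. Of these 10 genes, 7 had a row in the table of read counts, which holds 33451 genes with at least 1 count in at least 1 library. KLK5, KLK10 and KLK12 were not analysed here. The libraries came from MDA-MB-453, an established human breast cancer cell line. The agent was 25(OH)D, the main vitamin D metabolite of the blood, given at 100 nM for 5 days, and control cells received 0.1% alcohol, its solvent. There were 3 mRNA libraries in each group, named here control and 25(OH)D. The study calls them biological replicates without describing how the cultures were kept apart, so the p-values measure only the spread between these libraries, which may be technical.

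Kallikrein-related peptidases are secreted serine proteases that are made as inactive precursors and become active when another protease, often a kallikrein, removes a short N-terminal peptide. Most cut after basic residues like trypsin, and a few, such as KLK7, cut like chymotrypsin. They are best known from the skin, where they release dead cells from the surface, from the prostate, where KLK3 is the prostate-specific antigen, and as genes controlled by steroid hormones in breast and other glands.

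The total count was between 33268860 and 40928176 in the 6 libraries. All 12 markers of luminal breast epithelium that were looked up, among them the keratins KRT8 and KRT18, passed the low-count filter, with a summed level of 3918 to 4075 RPKM in control and 3051 to 3165 RPKM in 25(OH)D. Most of this sum was XBP1, at 2663 ± 56.1 RPKM in control and 1759 ± 42.7 RPKM in 25(OH)D (SD, n = 3 each). By the edgeR test described below, 6 of the 12 markers were called higher, KRT8 and KRT18 among them, and 4 lower. Over all genes tested, 17.3% were called higher and 16.5% lower. RPKM is the count scaled to the length of the gene and to the total of the library. The markers of other cell types summed to 1.42 to 1.77 RPKM in control and 1.20 to 1.70 RPKM in 25(OH)D for 8 basal and myoepithelial markers, to 3.81 to 6.79 and 2.98 to 5.72 RPKM for 9 keratinocyte markers, and to 3.75 to 4.03 and 3.19 to 3.47 RPKM for 6 fibroblast markers. COL1A1 made nearly all of the fibroblast sum (3.88 ± 0.161 RPKM in control, 3.32 ± 0.116 in 25(OH)D). KRT10 made most of the keratinocyte sum (4.66 ± 1.30 and 3.87 ± 1.28, SD, n = 3 each). Of the basal and myoepithelial markers, 4 were tested, and TP63 and MYH11 were called lower. TP63 had 12, 26 and 19 counts in control and 3, 2 and 2 in 25(OH)D, and passed the low-count filter only through its control libraries. The 6 immune markers summed to 1.90 to 2.64 RPKM in control and 6.02 to 8.68 RPKM in 25(OH)D, nearly all of it CD68, a lysosomal protein that epithelial cells also make. The B cell marker MS4A1 had at most 2 counts in each library, and the T cell marker CD3E had 2 counts in a single library. A first principal component that held 64.8% of the variance separated the groups, and no library stood apart from its own group on it.

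KLK6 and KLK14 were the only members of the family with more than 4 counts in any library. Their upstream sequences are shown because they are the members whose read counts carry every comparison below. The bases come from RefSeq windows of GRCh38.p14 that reach from 250 bases before to 50 bases after an annotated start, cut to the stretch that overlaps no exon of GENCODE 29, and they are written 5′ to 3′ on the minus strand. Capitals mark the GC box, GGGCGG or its reverse complement. The first sequence is chr19:50969674-50969841, just before the first base of KLK6, the second is chr19:51084246-51084460, just before the first base of KLK14, and the third is chr19:51082887-51083106, inside the KLK14 gene between exons and before another annotated start.

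KLK6 upstream: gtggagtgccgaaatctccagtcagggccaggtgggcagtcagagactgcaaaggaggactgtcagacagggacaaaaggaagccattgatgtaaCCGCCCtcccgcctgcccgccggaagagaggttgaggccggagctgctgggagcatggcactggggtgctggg
KLK14 upstream: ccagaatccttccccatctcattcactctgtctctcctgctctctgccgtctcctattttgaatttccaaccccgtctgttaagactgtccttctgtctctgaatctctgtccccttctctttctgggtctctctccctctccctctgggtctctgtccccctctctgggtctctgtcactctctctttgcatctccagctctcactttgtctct
KLK14 internal start: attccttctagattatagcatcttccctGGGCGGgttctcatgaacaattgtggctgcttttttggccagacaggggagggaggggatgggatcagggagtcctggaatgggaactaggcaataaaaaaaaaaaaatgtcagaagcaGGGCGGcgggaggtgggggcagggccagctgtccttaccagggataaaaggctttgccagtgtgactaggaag

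The KLK6 stretch of 168 bases held 1 GC box, the 215 bases before KLK14 held none, and the 220 bases before the internal start held 2. Over its full window of 300 bases KLK6 had 3 GC boxes, and 45.0% of all 35116 RefSeq windows of this length held at least 1. The search covered both strands, and matches could share bases with one another. Letters found in the sites of the vitamin D receptor and related receptors were in neither the KLK6 window nor the 3 windows of KLK14. Those searched were AGGTCA, which 13.8% of all windows held, then AGTTCA at 10.4%, then GGGTCA at 14.1%, and last GGTTCA at 8.62%. The same held for the steroid receptor letters AGAACA, in 14.8% of all windows, for the AP-1 letters TGANTCA in 7.71%, and for the TATA box TATAAA in 11.5%. Windows were found for 9 of the 10 members. A match or its lack describes these letters alone.

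KLK6 rose from almost no reads in control to a low but steady level with 25(OH)D. KLK6, also called neurosin or protease M, is a trypsin-like protease known for its abundance in the nervous system. The gene ENSG00000167755.14 lies on the minus strand of chromosome 19 from 50958631 to 50969673 in GRCh38. It had 0, 3 and 0 counts in control replicates 1, 2 and 3, and 54, 75 and 63 counts in 25(OH)D replicates 1, 2 and 3. Every 25(OH)D library was above every control library, and the only control reads were in control replicate 2. Of all genes tested, 45.7% had groups that did not overlap, in either direction. In RPKM the control libraries were at 0, 0.0408 and 0, and the 25(OH)D libraries at 0.763, 0.979 and 0.958.

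Summed over the groups, KLK6 had 3 counts in control and 192 in 25(OH)D, a ratio of 68.0 after scaling to the summed totals, with an exact interval from 22.9 to 333 that covers counting error only. The fitted log2 fold change was 5.95 (SE 0.601, adjusted p = 2.59e-06, edgeR quasi-likelihood test), on 0.0264 ± 0.0458 CPM in control and 1.81 ± 0.234 CPM in 25(OH)D (SD, n = 3 each). CPM is the count relative to the library size after TMM scaling, the normalization of edgeR. The p-values were adjusted over all 18183 tested genes by the Benjamini-Hochberg method, and a gene was called at an adjusted p under 0.05. Of all genes tested, 33.8% were called, 17.3% higher and 16.5% lower, and the share called higher with a log2 fold change over 1 was 3.69%, against 2.30% lower past the same limit. Among the 10 members, 2 were tested and 1, KLK6, was called, higher and past the limit. KLK6 passed the low-count filter only through its 25(OH)D libraries and so had to differ between the groups once it was tested. A two-sided exact permutation test of 3 libraries against 3 cannot go below p = 0.1.

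Control replicate 2 decided how large the change of KLK6 appeared. Without it the controls held 0 counts, the fitted log2 fold change became 9.07, a value that then depends on the prior count of the fit, and KLK6 was at least 45.9-fold higher in 25(OH)D, taking 3 counts over the group as the floor. On log2(RPKM + 1) the difference was 0.90, since the added 1 exceeds the level of the gene. Control replicate 2 also held 1488 of the 5463 genes (27.2%) with reads in a single library, against 714 to 1021 genes in the other libraries. Among those 1488 genes were 3 kallikreins. The part of this in the 3 control counts of KLK6 was not tested. Counts of 2 were more common than counts of 1 in every library, and 66.0% to 68.0% of the counts from 1 to 20 were even. With every count of KLK6 halved and rounded up, as if both mates of a pair had been counted, the ratio was 51.0 with an exact interval from 13.7 to 427.

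**Figure D1:**
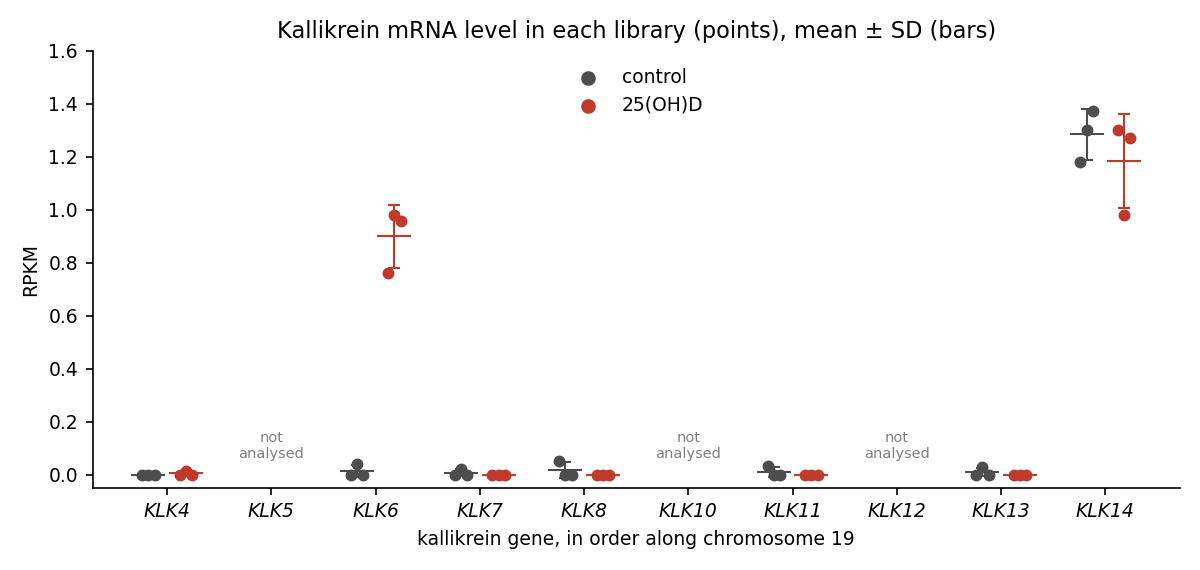
Level of each kallikrein in RPKM (vertical axis, linear) against the gene in genomic order (horizontal axis), with points for the 3 control and the 3 25(OH)D libraries and bars for the mean ± SD. KLK6 rises from at most 0.0408 RPKM in control to between 0.763 and 0.979 RPKM in 25(OH)D, KLK14 sits between 0.979 and 1.37 RPKM in both groups, and the other members with a row stay near 0.

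Few genes went from the floor to as many reads as KLK6. Of the 9177 genes with at most 3 counts in every control library, 15 (0.163%) had at least 54 counts, the lowest value of KLK6, in every 25(OH)D library. KLK6 was in this set by construction, since the cutoff was its own lowest value, and was the 14th of these 15 by summed counts. In the other direction there were 0 such genes among the 9880 with at most 3 counts in every 25(OH)D library. By mean RPKM, KLK6 was above 17.0% of the listed genes in control and above 59.4% in 25(OH)D. The genes whose centred log2 CPM over the 6 libraries lay nearest to that of KLK6 were IQSEC3, CSF3R and CTB-147C22.8, with root mean square differences of 0.162, 0.319 and 0.362. The last of these shares exon bases with KLK6, and all 3 were looked up after its values were seen.

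Reads over the genes annotated inside or across KLK6 rose with it. CTB-147C22.8, an antisense gene on the plus strand (50950185 to 50963649, AC011483.2 in GENCODE 29), had 0, 2 and 0 counts in control and 30, 41 and 37 in 25(OH)D. Its summed counts were 2 and 108, a ratio of 57.4 with an exact interval from 15.5 to 480, and its fitted log2 fold change was 5.63 (SE 0.688) and 8.24 without control replicate 2. CTB-147C22.6, a single exon of 585 bases in an intron of KLK6 on the same strand (50962197 to 50962781), had 0, 0 and 0 counts in control and 27, 47 and 40 in 25(OH)D, at least 40.4-fold higher against 3 counts over the group. In both genes the 25(OH)D libraries lay above all control libraries. Like KLK6, both passed the low-count filter only through their 25(OH)D libraries and had to differ once tested, so their calls are given as a description.

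The antisense gene shares 401 exon bases with KLK6, which are 20.3% of the 1976 exon bases of KLK6 and 41.8% of the 959 of CTB-147C22.8. The library kit marks strand, but the deposited counts appeared not to separate strands. Genes of at least 200 bases wholly inside the exons of a host with at least 5000 counts had a median of 53.6% of the read density of the host when on the opposite strand (195 pairs) and 52.6% when on the same strand (74 pairs). Genes without a read have no row and could not enter these pairs, and the counting setting is not given in the sources used here. Reads of KLK6 and of its antisense gene were therefore treated as not separable over the shared bases. If every count of CTB-147C22.8 is subtracted from KLK6, 24, 34 and 26 counts remain in the 25(OH)D libraries and 0, 1 and 0 in control. The intronic gene lies between exons of both KLK6 and CTB-147C22.8 and shares no exon base with either. Which transcript its reads came from was not tested. Per 100 exon bases, the summed 25(OH)D counts were 9.72 for KLK6, 11.3 for CTB-147C22.8 and 19.5 for CTB-147C22.6, so that the intronic exon had 2.01 times the read density of the KLK6 exons.

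**Figure D2:**
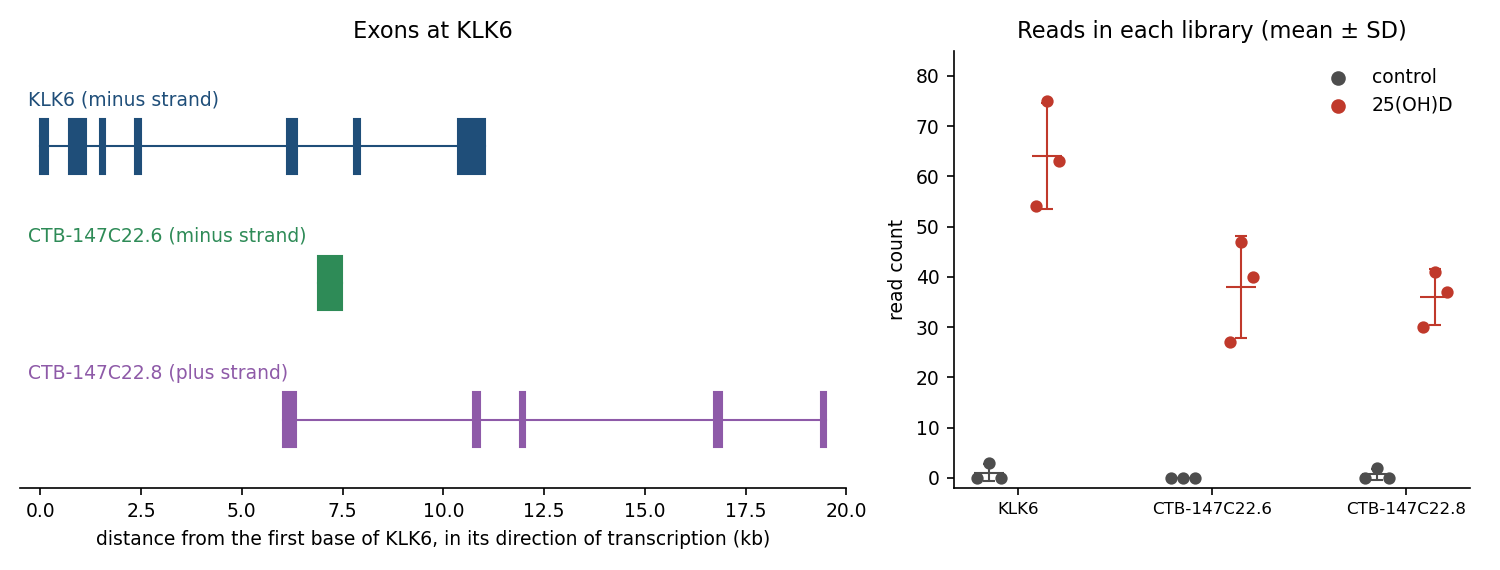
Left, exons (boxes) of KLK6 and of the genes annotated across and inside it, against the distance in kb from the first base of KLK6 in its direction of transcription. Right, read counts of the same genes in each library (points, with mean ± SD); the 3 genes have at most 3 counts in control and between 27 and 75 in 25(OH)D.

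KLK14 did not change detectably. It encodes a trypsin-like protease that acts in the shedding of skin cells and can cut the receptor PAR2. The gene ENSG00000129437.10 lies on the minus strand from 51077495 to 51084245. It had 56, 56 and 58 counts in control and 54, 44 and 49 in 25(OH)D, or 1.18, 1.30 and 1.37 RPKM against 1.30, 0.979 and 1.27 RPKM. The groups overlapped in RPKM, and 25(OH)D replicate 2 was the lowest library. The log2 fold change was -0.075 (SE 0.238, 95% interval -0.59 to 0.44, adjusted p = 0.842, edgeR quasi-likelihood test), with 1.47 ± 0.116 CPM in control and 1.39 ± 0.217 CPM in 25(OH)D (SD, n = 3 each). Without 25(OH)D replicate 2 it was 0.060. The summed counts of 170 and 147 gave a ratio of 0.919, with an exact interval from 0.732 to 1.15. KLK14 was above 62.9% of the listed genes in control and 62.2% in 25(OH)D. The genes nearest to its pattern over the 6 libraries were MRPL15, PLGRKT and TMEM79, with root mean square differences of 0.0546, 0.0560 and 0.0583 in centred log2 CPM.

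The makeup of the family's reads shifted as KLK6 rose beside a steady KLK14. KLK6 held 0%, 4.76% and 0% of the counts of the members in control and 50%, 62.5% and 56.25% in 25(OH)D. The summed level of the members was 1.26, 1.39 and 1.37 RPKM in control and 2.06, 1.97 and 2.23 RPKM in 25(OH)D. Every 25(OH)D library was higher. In 25(OH)D replicates 1 and 3 the RPKM of KLK6 was 0.587 and 0.754 times that of KLK14, and in replicate 2 both genes were at 0.979 RPKM. In order of mean RPKM in 25(OH)D, KLK14 (1.18 ± 0.177) and KLK6 (0.900 ± 0.119, SD, n = 3 each) had overlapping libraries.

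The other 5 members with a row had at most 4 counts in each library and did not pass the low-count filter. KLK4, which matures tooth enamel, had 1 count in 25(OH)D replicate 2 and none elsewhere. KLK7, a chymotrypsin-like protease of the outer skin, had 2 counts in control replicate 2 alone. KLK8, or neuropsin, had 4 counts in control replicate 1 alone, and it shares 747 of its 1865 exon bases with CTC-518B2.8 on the same strand. KLK11 likewise had 4 counts in control replicate 1 alone. KLK13 had 2 counts in control replicate 2 alone. For each of these 5 genes all reads sat in 1 library, and no fold change is given. A count of 3, the floor used here, was worth 0.0733 to 0.0902 CPM before TMM scaling, so a difference at these levels was not detectable at this depth.

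The 5 kallikreins of the cluster outside the 10 members that had a row were no higher. KLK15 had 4 counts in control replicate 1 and 1 in 25(OH)D replicate 3. KLK3, the prostate-specific antigen, had 2 counts in 25(OH)D replicate 1, and KLK2, its closest relative in the prostate, 2 counts in 25(OH)D replicate 2. KLK9 had 2 counts in control replicate 2. The pseudogene KLKP1 had between 0 and 2 counts in every library. KLK1 was not analysed here. KLKB1, the plasma kallikrein on chromosome 4, lies outside the cluster and was looked up after its values were seen. It had 24, 19 and 20 counts in control and 33, 40 and 32 in 25(OH)D, a log2 fold change of 0.86 (SE 0.319, adjusted p = 0.0508, edgeR quasi-likelihood test) that did not pass the threshold, and passed it with RLE size factors (adjusted p = 0.0499), with limma on log2(RPKM + 1) (0.0123) and with limma on log2(RPKM + 0.1) (0.0142).

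Few genes around the cluster had enough reads to be tested. The 7 members with a row span 177.894 kb, and 24 other genes with a row lie within that span or 250 kb of it. Of these, 6 were tested, and 2 were called higher and 1 lower (50% called, against 33.8% of all genes tested, 17.3% higher and 16.5% lower). Those called higher were CTB-147C22.6 and CTB-147C22.8, whose calls followed from passing the filter, and neither was tested with a filter of at least 1 CPM in at least 3 libraries. C19orf48 was called lower, with 564, 540 and 636 counts in control and 291, 391 and 353 in 25(OH)D (log2 fold change -0.62, SE 0.118, adjusted p = 8.53e-04, edgeR quasi-likelihood test). KLK7, the next kallikrein upstream of KLK6, had reads only in control replicate 2.

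Inhibitors of kallikreins and related proteases were next examined, in a list of 23 genes of which 7 were tested. In this list 4 genes rose and 0 fell (57.1% called, against 33.8% of all genes tested, 17.3% higher and 16.5% lower). The median log2 fold change was 0.69 against -0.011 over all genes tested. The risers were the Kunitz-type inhibitors SPINT2 (41.4 ± 1.67 to 62.6 ± 2.79 RPKM, SD, n = 3 each; log2 fold change 0.64) and SPINT1 (0.34), the secretory leukocyte protease inhibitor SLPI (0.998) and the intracellular serpin SERPINB6 (0.69). SPINK5, which encodes the skin's main kallikrein inhibitor, had 2 counts in control replicate 2 and 2 in 25(OH)D replicate 2. Genes named in this and the following lists beyond the strongest in each direction and the main receptors were chosen after their values were seen.

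Of 18 proteases that activate kallikreins or act beside them, 7 were tested, 3 rose and 0 fell. The share called was 42.9%, against 33.8% of all genes tested, and the median log2 fold change was 0.23. The membrane serine protease TMPRSS2 rose from 1.22 ± 0.127 to 11.7 ± 0.543 RPKM (SD, n = 3 each). Its log2 fold change was 3.30 (SE 0.0794, adjusted p = 5.13e-13, edgeR quasi-likelihood test). The lysosomal protease CTSL (0.67) and the calpain CAPN1 (0.23) were also called higher. The call of CAPN1 was lost without control replicate 3 (adjusted p = 0.0702) and without 25(OH)D replicate 1 (adjusted p = 0.0696), and also on both RPKM scales and without TMM factors. ST14, or matriptase, had 4138, 2130 and 2261 counts in control and 2692, 2982 and 7668 in 25(OH)D (log2 fold change 0.84, adjusted p = 0.0735), and 25(OH)D replicate 3 was far above the others. Without that library the log2 fold change of ST14 was 0.10, and it was called without control replicate 1 (1.14) and without 25(OH)D replicate 1 or 2 (1.11 each). It was also called in all libraries without a low-count filter (0.84, adjusted p = 3.30e-53, edgeR quasi-likelihood test). In that setting its SE was 0.0536, against 0.340 in the main fit at nearly the same change. That p-value does not reflect the spread between the libraries, whose groups overlapped. CTSC had the smallest p among those with a negative change (log2 fold change -0.19, adjusted p = 0.453) and was not called.

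Among 33 receptors and substrates of kallikreins, 15 were tested, 5 rose and 5 fell (66.7% called, against 33.8% of all genes tested). Their median log2 fold change was -0.24. F2RL1, which encodes PAR2, the receptor that several kallikreins switch on by cleavage, had 10, 40 and 4 counts in control and 60, 64 and 56 in 25(OH)D. All 25(OH)D libraries were above the controls (log2 fold change 1.85, SE 0.509, adjusted p = 0.0114, edgeR quasi-likelihood test), the change was 3.24 without control replicate 2, and the gene was not called by DESeq2 (adjusted p = 0.0845). F2RL1 passed the low-count filter only through its 25(OH)D libraries, so its call and its place among the 5 that rose are given as a description. Of all genes tested, 45.7% had groups that did not overlap, in either direction. CAMP, the cathelicidin precursor that skin kallikreins process and a well-known target of the vitamin D receptor, rose from 2.67 ± 0.445 to 26.6 ± 1.72 RPKM (SD, n = 3 each; log2 fold change 3.36). The amyloid precursor APP (0.83), the growth factor binding protein IGFBP2 (0.83) and E-cadherin CDH1 (0.34) were also higher. IGFBP5 fell from 332 ± 7.24 to 140.0 ± 7.91 RPKM (SD, n = 3 each; log2 fold change -1.20), and IGFBP4 (-2.05), the desmosomal cadherins DSG2 (-0.46) and DSC2 (-0.48) and the growth factor TGFB1 (-0.24) were lower too. The call of TGFB1 was lost without any of the 3 control libraries and without 25(OH)D replicate 1 (adjusted p from 0.0559 to 0.141).

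Steroid and nuclear receptors, the class to which known regulators of kallikrein genes belong, were listed together with FOXA1 and the coactivators NCOA1, NCOA2 and NCOA3. This list gave 15 tested genes of 19. Of these, 3 were called higher and 4 lower (46.7%, against 33.8% of all genes tested), with a median log2 fold change of -0.11. The vitamin D receptor VDR rose from 14.5 ± 0.177 to 23.1 ± 1.12 RPKM (SD, n = 3 each; log2 fold change 0.72, SE 0.0458). The coactivator NCOA1 was higher as well (0.34). FOXA1, a factor that opens chromatin for steroid receptors, fell by 0.46 on the log2 scale, and the glucocorticoid receptor NR3C1 (-0.24), RXRA (-0.37) and THRA (-0.43) were also lower. The oestrogen receptor ESR1 had at most 4 counts in each library and the progesterone receptor PGR at most 8.

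In a list of 21 other androgen-regulated genes of glandular cells, 16 were tested, 10 rose and 1 fell (68.75% called, against 33.8% of all genes tested). The median log2 fold change was 0.81. TMPRSS2, also in this list, led it. GGT1, which encodes gamma-glutamyltransferase, rose by a log2 fold change of 2.36, the metalloreductase STEAP4 by 2.81, the prostatic acid phosphatase ACPP by 1.53, the claudin CLDN8 by 1.37 and the secreted glycoprotein AZGP1 by 1.04. STEAP4 had 10, 8 and 4 counts in control and 44, 50 and 48 in 25(OH)D. It passed the low-count filter only through its 25(OH)D libraries, so its place among the 10 is given as a description. MUCL1, a small mucin of the breast, fell by 0.63 on the log2 scale.

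Of 29 cornification genes, which skin kallikreins act beside, 14 were tested, 2 rose and 2 fell, with a median log2 fold change of -0.055. The share called, 28.6%, was near the 33.8% of all genes tested. The cholesterol sulfotransferase SULT2B1 rose from 0.479 ± 0.0838 to 3.40 ± 0.0905 RPKM (SD, n = 3 each; log2 fold change 2.86), and the envelope protein PPL rose by 0.65. CALML5, a calcium-binding protein of differentiating keratinocytes, fell by 1.30 on the log2 scale. ABCA12, a lipid transporter, fell by 0.13, and its call was lost without control replicate 1 or 2 and without 25(OH)D replicate 1 or 3 (adjusted p from 0.131 to 0.204). Beside this list, the 9 keratinocyte markers gave 2 tested genes and no call, and IVL, FLG and SPRR1B had at most 4, 8 and 2 counts in a library.

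**Figure D3:**
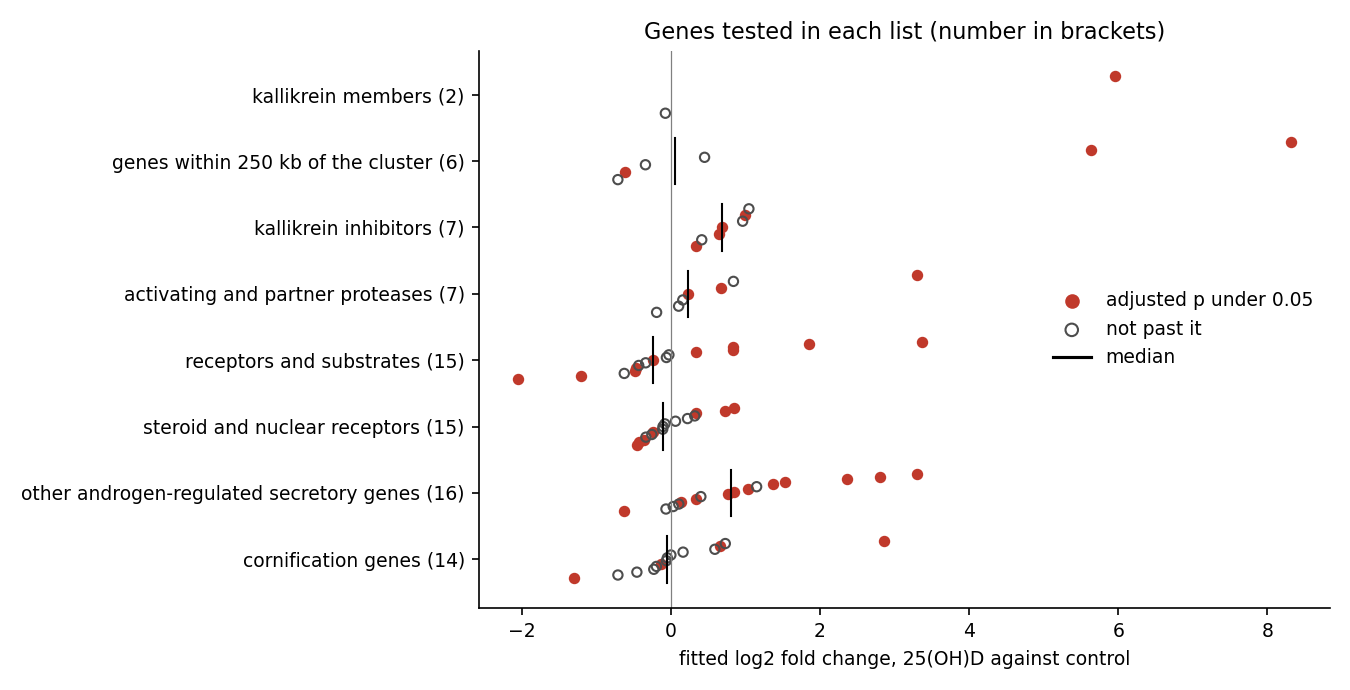
Fitted log2 fold change (horizontal axis, 25(OH)D against control) of the tested genes of each list, filled where called at an adjusted p under 0.05, with the median of each list other than the members as a bar. KLK6 and both genes annotated at it lie far to the right, KLK14 lies near 0, and the fitted value of CTB-147C22.6 depends on the prior count since its controls are at 0.

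KLK6 was called and KLK14 was not under each of 15 other settings. Wherever a low-count filter was used, the call of KLK6 followed from passing it, so its p-values are given as a description. The adjusted p of KLK6 lay between 1.62e-27 and 6.28e-05 over the 15 settings, and that of KLK14 between 0.558 and 0.977 (edgeR, DESeq2 or limma, as the setting names). The plot of settings shows that the size of the KLK6 change depended most on the value added on the RPKM scale, 0.90 with 1 added and 3.15 with 0.1 added, and on control replicate 2.

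**Figure D4:**
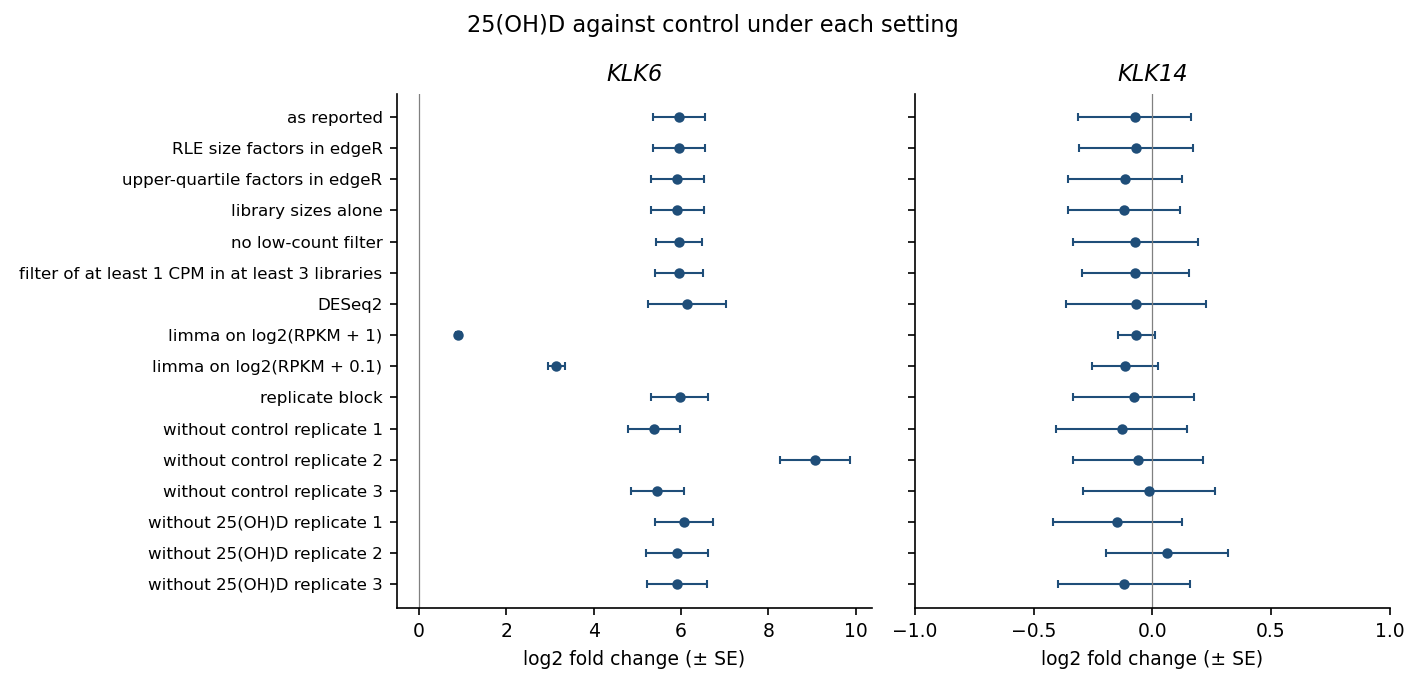
Log2 fold change (± SE) of KLK6 (left) and KLK14 (right) in 25(OH)D against control under the reported fit and 15 other settings. KLK6 stays above 0 in all of them, from 0.90 to 9.07, and KLK14 stays within 0.15 of 0.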

How the data were processed

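Messenger RNA of MDA-MB-453 cells was sequenced in 3 control and 3 25(OH)D libraries, which were assigned to groups from the sample labels. The authors deposited raw counts per gene without normalization, and RPKM values, each equal to the count over the gene length and the library total. Their processing notes name Trimmomatic 0.36, featureCounts of Subread 1.5.1, edgeR 3.12.1 and GRCh38. The aligner and the annotation release are not given in the sources used here. All value columns were used.

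The main test was that of edgeR 4.0.16 in R 4.3.3 (TMM, filterByExpr with a minimum count of 10, quasi-likelihood test without covariates), leaving 18183 genes, with Benjamini-Hochberg adjustment over all of them and a threshold of 0.05. The biological coefficient of variation was 0.0788. The test was also run on counts simulated from the observed means and the dispersions of the main fit. Alternatives used DESeq2 1.42.0, limma 3.58.1 on log2(RPKM + 1) or log2(RPKM + 0.1), other normalizations and filters, the replicate number as a block, and the omission of each library. Two-sided exact (Clopper-Pearson) intervals have a confidence level of 95%. Positions are those of GENCODE 29, and promoter windows those of RefSeq. Python 3.11.15 with scipy 1.17.1, pandas 2.3.3 and matplotlib 3.10.9 did the rest.

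The members and lists were chosen with earlier results of these data known. The rule for genes to name took every kallikrein of the cluster, in each list the gene with the smallest p in each direction, the receptors VDR, ESR1, PGR and NR3C1, the 3 called genes within 250 kb with the largest change, and the 3 genes nearest in pattern to the most abundant member. Another gene that this rule took is not reported here. Lists were described by counts and medians without a set test. No pair of replicates held identical values.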

Additional observations from a re-analysis of the deposited data

How the results depend on the processing

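Over the 15 alternatives, the count of members called stayed at 1 higher and 0 lower, and the call of KLK6 followed from passing the filter wherever one was used. The count of members past the fold limit fell to 0 on log2(RPKM + 1), where the log2 fold change of KLK6 was 0.90, and the count of neighbouring genes called higher fell from 2 to 0 with a filter of at least 1 CPM in at least 3 libraries, which left neither gene at KLK6 tested. With each library left out in turn, KLK6 ranged from 5.38 to 9.07 and KLK14 from -0.15 to 0.060 on the log2 scale, the last value, without 25(OH)D replicate 2, being the only change of sign of a member, and neither changed its side of the threshold. With the replicate number as a block, KLK6 was at 5.97 and KLK14 at -0.079, and 3057 genes were higher and 2896 lower in place of 3138 and 3004. Libraries with the same number did not deviate together (correlations of -0.072, -0.012 and -0.046), which cannot show whether they were grown or processed together. The settings that omit control replicate 2 against the floor (at least 45.9-fold) and that halve the counts (51.0-fold) were chosen after seeing the data. Of the lists, only the lower count of the cornification genes moved by over 1.5 times, from 2 to 1 under 7 settings. Without TMM factors, 2689 genes were higher and 3667 lower. Limits are the counts of 75 or fewer behind KLK6, mates that appear to be counted separately, counting that appears to be unstranded at KLK6, and a single cell line at a single dose and time.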
